A study of Mus musculus with 16 samples.

Results

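How the response of preadipocytes to dexamethasone (dex) changed between 2 and 36 h was measured gene by gene, as the dex effect at 36 h minus the dex effect at 2 h. 3T3-L1 cells are mouse fibroblasts of an established line that hormones can turn into adipocytes, and dex is a synthetic agonist of the glucocorticoid receptor. The groups were 3T3-L1 cells with dex for 2 h, with the DMSO vehicle for 2 h, with dex for 36 h and with DMSO for 36 h. Each had 4 replicates, which the design text of the series calls biological. All 16 of the 16 arrays and all 19640 genes measured entered the comparison. No genotype or other agent is named for any group, the labels give no dose of dex, and a single cell line was used. RNA of each sample (Cy5) was hybridised against a pool of the samples (Cy3), so a value is the log2 ratio of sample over pool. Such a value does not show whether a gene is expressed, and levels of different genes cannot be compared. Beyond the word biological, nothing states that replicates came from separate cultures, so p-values measure the spread between these samples.

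The glucocorticoid receptor is a transcription factor that waits in the cytoplasm, held by chaperones, and enters the nucleus when it binds hormone. There it switches on genes near its binding sites within minutes to hours, among them negative regulators of MAP kinase and NF-kappaB signalling, and it dampens inflammatory genes. Proteins made in this early wave act on further genes later, and some early targets are switched off again by feedback. In preadipocytes glucocorticoid is a standard part of the hormone mix that starts adipogenesis, which runs from the early factors C/EBP-beta and C/EBP-delta to PPAR-gamma and the genes of lipid storage.

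The arrays of the early time were the noisier ones. The SD of the residuals over probes was 0.194 to 0.502 on the log2 scale at 2 h and 0.124 to 0.236 at 36 h. Pairs of arrays correlated at -0.26 to 0.35 within DMSO 2 h and at 0.12 to 0.38 within dex 2 h. Within dex 36 h they correlated at 0.16 to 0.79, a wider range than the 0.53 to 0.68 within DMSO 36 h. DMSO 2 h replicate 4 stood apart, with the highest residual SD, 0.502, and a mean correlation of -0.104 with the other arrays of its group. The fit gives each probe 1 spread over all arrays, so standard errors (SE) tend to understate the error of the 2 h effect. On 3 dex 2 h arrays 131 values were missing and those probes were fitted on the remaining arrays. No signal intensities were analysed here.

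The dex effect changed between the times for 683 genes by at least 1 probe, which is 3.48% of the 19640 (limma, Benjamini-Hochberg adjusted p under 0.05 over 38467 probes). In these bulk samples fewer cells of a kind and less RNA per cell cannot be told apart. The effect was higher at 36 h for 416 of them and lower for 267, and the change was at least 1 on the log2 scale for 193. By the 1 probe quoted per gene, 409 genes were higher at 36 h, or 2.08%, and 254 lower, or 1.29%. Without DMSO 2 h replicate 4 the counts by any probe were 570 and 342. They were 239 and 136 with array weights per time, and 793 and 622 after quantile normalization. Leaving out 1 array moved the lower count by over 1.5 times in 5 cases, to 160, 173 and 174 without DMSO 36 h replicates 2, 3 and 4, to 169 without dex 36 h replicate 1 and to 172 without dex 2 h replicate 3. At a single time, dex changed 613 genes at 2 h (3.12%) and 2278 at 36 h (11.6%) by the quoted probe. These effects share no arrays, and 306 genes were called at both times, which is 49.9% of the 2 h calls and 13.4% of the 36 h calls. Of the 306, 289 went in the same direction.

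Each gene was put in a response class by which of the 3 comparisons passed on its quoted probe. A delayed response passed at 36 h and not at 2 h, with a difference between the times that passed as well, and 454 genes were of this kind (289 rises and 165 falls). A transient response passed at 2 h and not at 36 h, again with a difference that passed, and there were 120 (62 rises and 58 falls). In 236 genes both effects passed in 1 direction and the difference did not, and these are called sustained (162 rises and 74 falls). Both effects and the difference passed in 37 strengthened genes (35 rises and 2 falls) and in 16 weakened ones (10 rises and 6 falls). The sign reversed in 17 genes. A further 187 genes passed at 2 h alone and 1518 at 36 h alone with a difference that did not pass, so for them a transient or delayed course was not resolved. Another 19 passed in the difference alone. Without DMSO 2 h replicate 4 the delayed, transient, strengthened, weakened, sustained and reversed classes held 588, 162, 41, 16, 267 and 21 genes. With array weights per time they held 270, 50, 11, 23, 144 and 6, and after quantile normalization 1129, 113, 36, 5, 295 and 22. The classes were defined by these calls, so the values below describe them and are no further test.

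**Figure D1:**
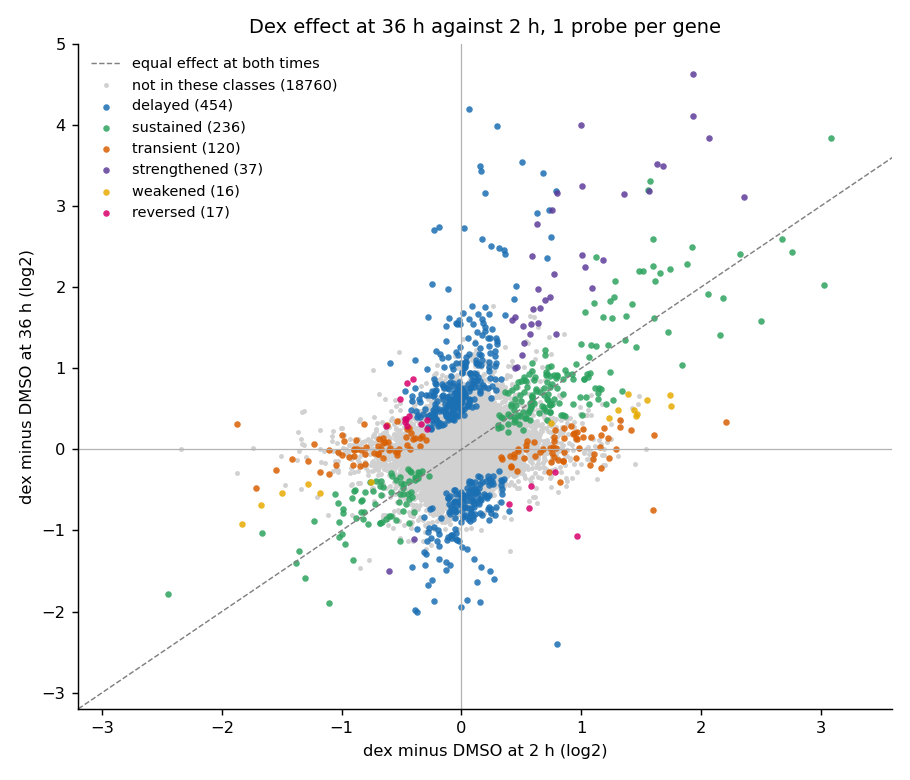
Each point is 1 gene, with the dex effect at 2 h on the x axis and at 36 h on the y axis, both as log2 of dex over DMSO, and the dashed line marks equal effects. Delayed genes (454) lie along the vertical axis, transient genes (120) along the horizontal one, sustained genes (236) around the dashed line, and the 17 reversed genes in the upper left and lower right.

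The classes also differed in what the vehicle did over time. For the 289 delayed rises the median level over genes was 0.0080 in DMSO and -0.0040 in dex at 2 h, and at 36 h it was -0.41 in DMSO and 0.36 in dex. The late separation thus came with a DMSO level below that of 2 h and a dex level above it. For the 165 delayed falls the medians were -0.022 and 0.020 at 2 h, and 0.30 in DMSO and -0.42 in dex at 36 h. Transient rises were apart at 2 h, at -0.35 in DMSO and 0.51 in dex, and met near the level of the pool at 36 h, at -0.026 and -0.0079. Transient falls did the same from the other side, from 0.31 and -0.44 at 2 h to 5.0e-04 and 0.039 at 36 h. In the 35 strengthened rises the dex level was 0.40 at 2 h and 0.77 at 36 h, while the DMSO level was -0.45 and then -1.43. The wider gap of this class at 36 h was mostly on the DMSO side.

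**Figure D2:**
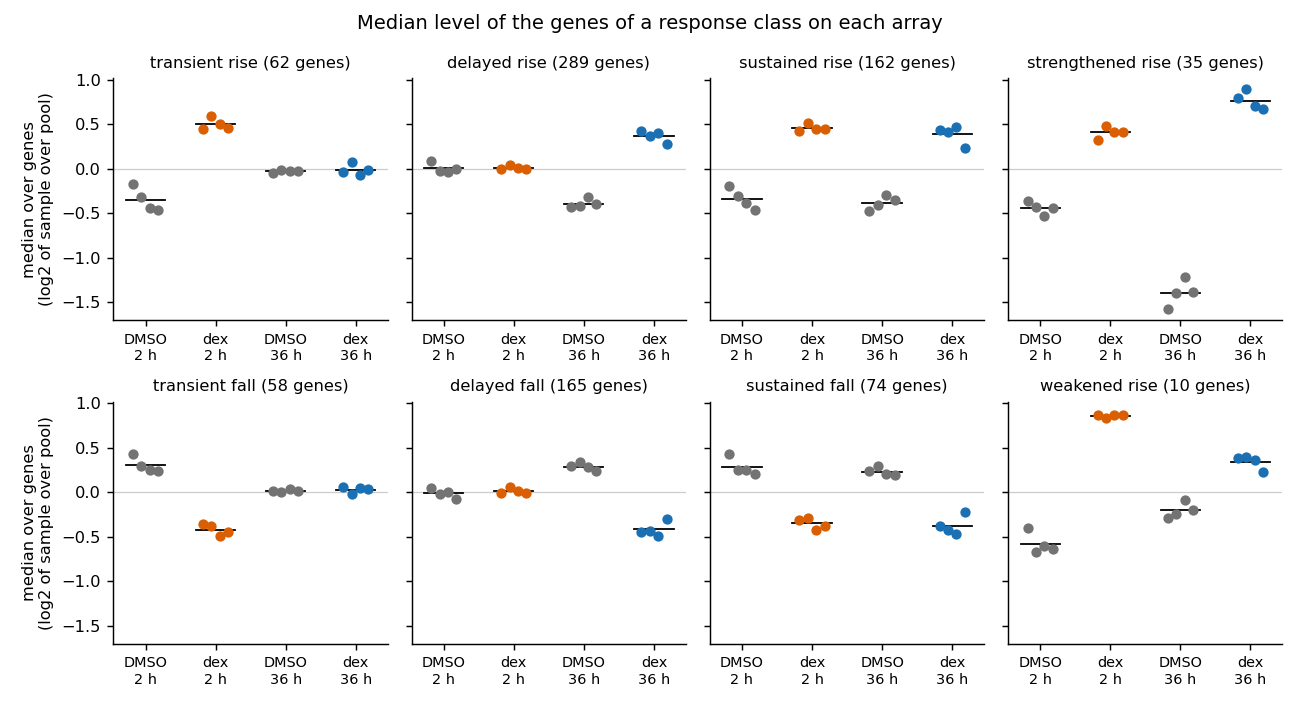
Each point is the median over the genes of a class on 1 array (log2 of sample over pool) and each line is the mean of the 4 arrays of a group, for 8 classes. The groups part at 2 h only in transient genes, at 36 h only in delayed genes and at both times in sustained, strengthened and weakened genes, as the class definitions require, and the DMSO level of strengthened rises is lowest at 36 h.

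Tcim, a small regulator of Wnt-dependent transcription, was at -0.86, -0.94, -1.83 and -1.39 with DMSO and at 0.89, 0.97, 0.98 and 0.96 with dex at 2 h. At 36 h it was at -0.45, -0.25, -0.088 and -0.19 with DMSO and at 0.10, 0.072, 0.20 and 0.019 with dex. The groups were far apart at 2 h, and at 36 h the dex arrays were still all above the DMSO arrays but close to them. Its dex effect was 4.61-fold at 2 h (2.21 ± 0.16 log2, SE, n = 4 per group, limma adjusted p = 9.1e-07) and 0.34 ± 0.16 at 36 h (adjusted p = 0.235), a difference of -1.86 ± 0.23 (adjusted p = 0.000213). A second Tcim probe gave a difference of -1.31. Csrnp1, a nuclear protein induced by axin, was at -0.25, -0.50, -0.58 and -0.83 with DMSO and at 0.89, 1.28, 1.09 and 1.01 with dex at 2 h and at 0.019, -0.085, -0.0021 and -0.027 with DMSO and at 0.091, 0.26, 0.081 and 0.18 with dex at 36 h. Its 3.06-fold rise at 2 h had shrunk to 1.13-fold at 36 h (difference -1.44 ± 0.16, adjusted p = 9.57e-05). In dex-treated cells Csrnp1 fell by 0.92 between the times and in DMSO it rose by 0.52.

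Follistatin (Fst), the secreted inhibitor of activin, was at 0.46, -0.57, -0.56 and -0.54 with DMSO and at 0.99, 0.93, 0.86 and 0.95 with dex at 2 h. The dex arrays lay close together and above all DMSO arrays, of which replicate 1 was far above the other 3. At 36 h the 4 DMSO arrays were at 0.19, 0.23, 0.15 and 0.13 and the dex arrays at 0.080, -0.075, 0.19 and 0.060, and the groups overlapped. The dex effect of Fst went from 1.24 to -0.11 (difference -1.35 ± 0.25, adjusted p = 0.0072). Prickle1, a component of planar cell polarity, went from 1.17 to -0.23. The Ras family GTPase gene Mras went from 1.29 to 0.0067 on 1 of 2 probes, the other giving a difference of -0.84 that did not pass. The matrix protease gene Adamts1 passed in the difference on all 3 of its probes, going from 1.42 to 0.24 on the quoted one (difference -1.18 ± 0.12, adjusted p = 6.48e-05). Adamts1 and the other genes named as examples beyond the rule in the methods were chosen with their values known.

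The ubiquitin ligase gene Hectd2 had the largest fall in effect among the transient rises named, and its size moved with the array that stood apart. Hectd2 was at -0.55, -0.50, -0.79 and -2.41 with DMSO and at 0.33, 1.06, 0.32 and 0.43 with dex at 2 h and at 0.12, 0.19, 0.18 and 0.44 with DMSO and at -0.41, -0.57, -0.81 and -0.29 with dex at 36 h. Its effect was 1.60 ± 0.32 at 2 h and -0.75 ± 0.32 at 36 h, where all dex arrays were below all DMSO arrays but the fit did not call it (adjusted p = 0.186). Without DMSO 2 h replicate 4 the effect at 2 h was 1.15 and the difference -1.90 (adjusted p = 2.65e-04) in place of -2.35, and the gene was then classed as reversed.

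Transient falls included a chemokine, an iron exporter and an inhibitor of lipoprotein lipase. Ccl7, a chemokine that draws monocytes, was at 0.24, 0.62, 0.90 and 0.62 with DMSO and at -1.17, -1.38, -1.45 and -1.12 with dex at 2 h and at -0.17, -0.46, -0.38 and -0.16 with DMSO and at 0.28, -0.31, 0.36 and -0.22 with dex at 36 h. Dex lowered it 3.66-fold at 2 h, with no overlap of the groups, and at 36 h the groups overlapped with an effect of 0.32 ± 0.16 (adjusted p = 0.285). The difference between the times was 2.19 ± 0.23 (adjusted p = 7.26e-05), the largest among the transient falls named. In dex-treated cells Ccl7 rose by 1.31 ± 0.16 from 2 to 36 h and in DMSO it changed by -0.88 ± 0.16. Slc40a1, the iron exporter ferroportin, was at 0.41, 0.34, 0.23 and 0.36 with DMSO and at -1.08, -1.08, -1.05 and -1.11 with dex at 2 h, with little spread in either group. At 36 h it was at -0.013, 0.063, -0.24 and -0.10 with DMSO and at -0.13, -0.20, -0.20 and -0.25 with dex. The fall of Slc40a1 was -1.41 ± 0.075 at 2 h and the effect at 36 h -0.12 ± 0.075, with a 95% interval of -0.28 to 0.036 that leaves room for a small fall.

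Angptl4, a secreted inhibitor of lipoprotein lipase and a known glucocorticoid target in adipose tissue, was at 0.85, 0.38, 0.37 and 0.38 with DMSO and at -0.76, -1.34, -1.44 and -1.36 with dex at 2 h. Its fall of -1.72 ± 0.15 at 2 h was in the opposite direction to the other members of the receptor target list that were called at that time, apart from Dusp4. At 36 h the effect of Angptl4 was -0.48 ± 0.15 (adjusted p = 0.0665), with all dex arrays below all DMSO arrays. The difference of 1.24 (adjusted p = 0.00527) was not called after quantile normalization (adjusted p = 0.0645). Cxxc5, a CXXC zinc finger protein, went from -1.55 to -0.26, the zinc finger gene Bnc1 from -1.23 to 0.065 and Pdgfb, a chain of platelet-derived growth factor, from -0.999 to 0.17. Each of these 3 fell at 2 h and did not pass at 36 h. The difference passed on 1 of 2 probes for Pdgfb and Angptl4, the other probe giving 0.63 and 0.93. Among genes with several probes, another probe had the same sign of the difference at an unadjusted p under 0.05 in 25 of 42 transient rises and in 24 of 32 transient falls.

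The delayed rises contained the largest change of effect among all genes named. Mogat1, an acyltransferase that makes diacylglycerol from monoacylglycerol, was at -0.15, -0.074, 0.017 and 0.35 with DMSO and at -0.081, 0.27, 0.15 and 0.051 with dex at 2 h, with overlapping groups. At 36 h it was at -3.41, -3.23, -3.37 and -3.56 with DMSO and at 1.19, 0.83, 0.65 and 0.52 with dex. The DMSO level had dropped far below every other group by then, while the dex level was above all 2 h arrays. The effect was 0.065 ± 0.14 at 2 h and 4.19 ± 0.14 at 36 h, or 18.3-fold, a difference of 4.13 ± 0.20 (adjusted p = 6.38e-08). By arm, Mogat1 rose by 0.70 ± 0.14 in dex-treated cells between the times (adjusted p = 0.0216) and changed by -3.43 ± 0.14 in DMSO (adjusted p = 5.92e-09).

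The other delayed rises named also had lower DMSO levels at 36 h. Aldh1a1, which makes retinoic acid from retinal, changed by -2.06 ± 0.23 in DMSO over time and by 0.67 ± 0.23 in dex (adjusted p = 0.203), with dex effects of 0.68 at 2 h and 3.41 at 36 h. At 2 h its dex arrays were already all above the DMSO arrays, though the effect did not pass (adjusted p = 0.237). Pacc1, a proton-activated chloride channel, went from 0.20 to 3.17, and M-cadherin (Cdh15) from -0.19 to 2.74. Ear10, a ribonuclease of the eosinophil-associated family, went from 0.16 to 3.44. Ear10 varied widely at 36 h, from -2.80 to -1.14 in DMSO and from 0.64 to 2.16 in dex, with no overlap. The histamine receptor gene Hrh4 went from -0.23 to 2.70 (difference 2.93 ± 0.52, adjusted p = 0.00532). Dex 36 h replicate 4, at -1.31, was far below the 3 other dex arrays of Hrh4, and with array weights per time its difference was not called (adjusted p = 0.057). In DMSO each of these 5 genes fell between the times, by 2.06 for Aldh1a1, 2.22 for Pacc1, 1.92 for Cdh15, 2.02 for Ear10 and 2.59 for Hrh4 on the log2 scale.

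Delayed falls ran in the opposite direction in both arms. Acta2, smooth muscle actin, was at 0.22, 0.28, 0.20 and 0.16 with DMSO and at 0.27, 0.10, 0.14 and 0.32 with dex at 2 h, where the groups overlapped. At 36 h it was at 1.04, 0.85, 1.11 and 0.93 with DMSO and at -1.11, -1.35, -0.86 and -0.53 with dex. DMSO-treated cells thus ended above and dex-treated cells below the level of 2 h, by 0.77 ± 0.13 and -1.17 ± 0.13. The dex effect of Acta2 was -0.0073 ± 0.13 at 2 h and -1.95 ± 0.13 at 36 h, a 3.85-fold fall, and the difference was -1.94 ± 0.19 (adjusted p = 3.87e-05). It passed on 1 of 4 probes, the others giving -0.66 to -0.24. Tpm1, a tropomyosin of actin filaments, had dex effects of -0.23 and -1.87 and passed in the difference on both of its probes. Ptn, the growth factor pleiotrophin, had effects of 0.15 and -1.89, and in DMSO it rose by 1.34 between the times.

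Egr1, a zinc finger transcription factor of the immediate early response, was a delayed fall in which the dex arm moved and the DMSO arm did not pass. Egr1 was at 0.29, 0.016, 0.25 and -0.085 with DMSO and at 0.12, 0.57, 0.21 and 0.11 with dex at 2 h and at 0.33, 0.40, 0.34 and 0.27 with DMSO and at -1.41, -1.63, -1.39 and -0.76 with dex at 36 h. Only the dex arrays of 36 h were low. Egr1 changed by -1.55 ± 0.16 in dex (adjusted p = 0.0002) and by 0.22 ± 0.16 in DMSO (adjusted p = 0.651), and the difference was -1.77 ± 0.22 (adjusted p = 0.000309). The protease gene Adam21 went from 0.24 to -1.50 and the synaptonemal complex gene Sycp2 from -0.37 to -2.01. The Sycp2 difference of -1.64 was lost under 3 of 24 alternatives, without dex 36 h replicate 1 (adjusted p = 0.0505), without DMSO 36 h replicate 2 (adjusted p = 0.053) and with array weights per time (adjusted p = 0.148). Among delayed genes with several probes, another probe had the same sign of the difference at an unadjusted p under 0.05 in 83 of 149 rises and in 55 of 91 falls.

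**Figure D3:**
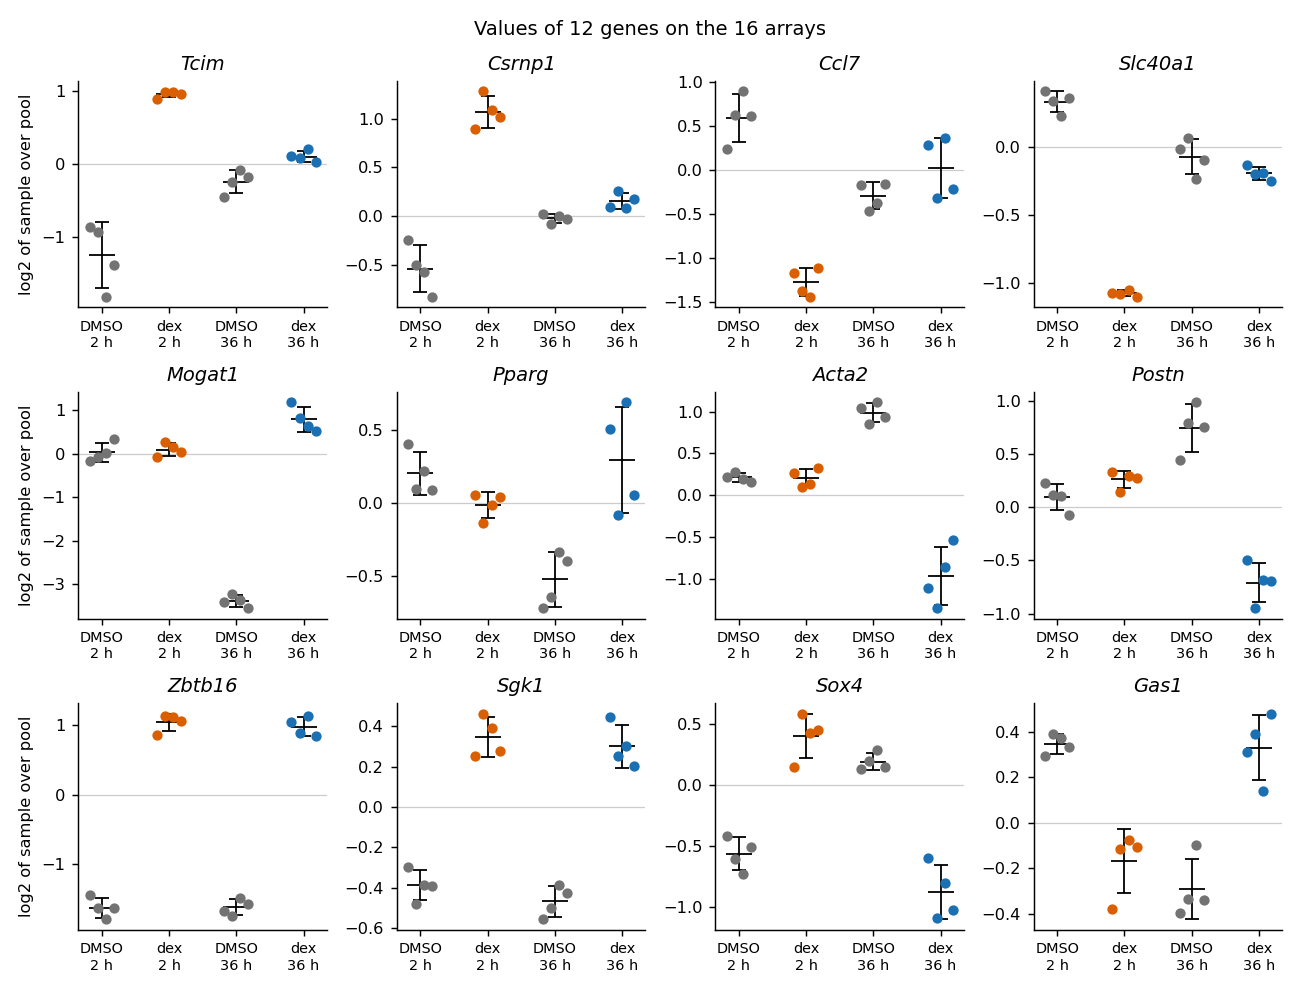
Points are the values of 12 genes on each of the 16 arrays (log2 of sample over pool), with the mean and SD of the 4 arrays of a group. Tcim and Csrnp1 are high with dex at 2 h and Ccl7 and Slc40a1 low, Mogat1 is lowest in DMSO at 36 h, Acta2 and Postn part at 36 h, Zbtb16 and Sgk1 part alike at both times, and Sox4 and Gas1 change sign.

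In strengthened genes an early response grew. Plxdc1, a plexin domain receptor, was at -1.26, -1.35, -1.59 and -1.78 with DMSO and at 0.19, 0.62, 0.48 and 0.45 with dex at 2 h and at -3.38, -3.06, -3.19 and -3.49 with DMSO and at 1.05, 0.84, 0.84 and 0.60 with dex at 36 h. Its rise went from 3.81-fold to 17.3-fold, by a difference of 2.18 ± 0.19 (adjusted p = 1.59e-05), while the level in dex changed by 0.40 ± 0.14 (adjusted p = 0.188) and that in DMSO by -1.78 ± 0.14. The groups were apart at both times. Ifi204, an interferon-inducible DNA sensor, went from 0.80 to 3.17, and Dpep1, a membrane dipeptidase, from 0.76 to 2.95. In the strengthened rises with several probes, another probe had the same sign of the difference at an unadjusted p under 0.05 in 4 of 19, so most of these rest on 1 probe.

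Other strengthened rises, given as examples, were the caveolae gene Cav1 (0.64 at 2 h and 1.98 at 36 h), the NAD salvage enzyme gene Nampt (1.01 at 2 h and 2.40 at 36 h) and xanthine dehydrogenase, Xdh (0.78 at 2 h and 2.16 at 36 h). Fkbp5, the co-chaperone that restrains the glucocorticoid receptor, was at -1.20, -1.75, -1.68 and -1.46 with DMSO and at 0.72, 0.94, 0.90 and 0.80 with dex at 2 h and at -2.30, -2.16, -1.93 and -2.05 with DMSO and at 1.01, 1.16, 0.78 and 1.04 with dex at 36 h. Its rise was large at both times, 5.15-fold and 8.62-fold, and the difference of 0.74 ± 0.17 passed (adjusted p = 0.032) but was lost under 14 of 24 alternatives (adjusted p 0.0201 to 0.275). Lcn2, the acute-phase lipocalin, went from 1.57 to 3.19, and its difference of 1.62 ± 0.37 was lost under 12 of 24 (adjusted p = 0.0294, 0.00429 to 0.221 over the alternatives). Both strengthened falls are named here. Id2, an inhibitor of basic helix-loop-helix factors, went from -0.61 to -1.50, a difference of -0.89 ± 0.20 (adjusted p = 0.0247) that was lost under 7 of 24 (0.000517 to 0.202). Marcks, a substrate of protein kinase C at the membrane, went from -0.39 to -1.11.

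The 16 weakened genes were those whose early change was still present but smaller at 36 h. Gadd45g, a growth arrest and stress gene, was at -0.36, -0.75, -0.59 and -0.64 with DMSO and at 1.12, 1.37, 1.09 and 1.09 with dex at 2 h and at -0.41, -0.18, -0.0033 and -0.12 with DMSO and at 0.39, 0.47, 0.48 and 0.10 with dex at 36 h. Its rise went from 3.37-fold to 1.45-fold with the groups apart at both times (difference -1.22 ± 0.16, adjusted p = 0.000593). Dok1, an adaptor that damps tyrosine kinase signals, went from 1.74 to 0.67 and passed in the difference on all 3 probes. Foxo3, a forkhead factor held in check by insulin signalling, went from 1.44 to 0.49 on 1 of 4 probes, the others giving differences of -0.54 to 0.21. Cdk5rap1, an RNA modifying enzyme, went from 1.46 to 0.41, and its difference passed on 1 of 3 probes, the others giving -0.81 and -0.87, and was lost after quantile normalization (adjusted p = 0.0516). The remaining weakened rises were Peli1 (1.47 at 2 h and 0.44 at 36 h), Mt4 (1.55 at 2 h and 0.61 at 36 h), Mertk (1.31 at 2 h and 0.49 at 36 h), Adm (1.39 at 2 h and 0.68 at 36 h), Suox (1.24 at 2 h and 0.39 at 36 h) and Plekha3 (0.75 at 2 h and 0.33 at 36 h). Mertk is a receptor kinase that clears dying cells and Adm is the vasodilator peptide adrenomedullin.

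Among weakened falls, Ccl2, the main monocyte chemoattractant, was at 0.48, 0.64, 0.80 and 0.56 with DMSO and at -1.15, -1.02, -1.30 and -1.38 with dex at 2 h and at 0.48, 0.47, 0.60 and 0.52 with DMSO and at -0.31, -0.89, -0.084 and -0.31 with dex at 36 h. It was lower with dex on every array at both times, 3.57-fold at 2 h and 1.89-fold at 36 h. The difference of 0.92 ± 0.20 (adjusted p = 0.0204) was lost under 7 of 24 alternatives (0.000733 to 0.462). Irf1, a transcription factor of the interferon response, went from -1.28 to -0.42, and its difference of 0.86 ± 0.14 (adjusted p = 0.0033) was lost after quantile normalization (adjusted p = 0.0683) and after median centring and scaling (adjusted p = 0.0755). The kinase gene Plk2 went from -1.68 to -0.69 (difference 0.99 ± 0.12, adjusted p = 0.000208) and was lost after quantile normalization (adjusted p = 0.143). The other 3 were Socs5 (-1.50 at 2 h and -0.53 at 36 h), Hic1 (-1.18 at 2 h and -0.53 at 36 h) and Nr2f2 (-0.76 at 2 h and -0.40 at 36 h), of which Nr2f2 is a nuclear receptor also known as COUP-TFII.

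Sustained responses held 236 of all 19640 genes and 20 of 39 listed targets of the receptor, a list chosen for genes that respond to glucocorticoid. Zbtb16, a zinc finger transcription factor, was at -1.45, -1.64, -1.80 and -1.64 with DMSO and at 0.86, 1.14, 1.12 and 1.06 with dex at 2 h and at -1.67, -1.75, -1.49 and -1.57 with DMSO and at 1.05, 0.89, 1.14 and 0.84 with dex at 36 h. The levels of both groups were about the same at the 2 times, and the rise was 6.38-fold and 6.06-fold. The difference in effect was -0.075 ± 0.14, with a 95% interval of -0.37 to 0.22. Glul, glutamine synthetase, rose 8.51-fold and 14.3-fold. The difference of 0.75 ± 0.30 did not pass (adjusted p = 0.262), and its interval of 0.12 to 1.38 holds a growth of the effect by more than 1 on the log2 scale. Tsc22d3, the glucocorticoid-induced leucine zipper, had an interval of -1.04 to 0.38, and Tent5b, a poly(A) polymerase, one of -0.76 to 0.48. For the prostate transporter gene Slc45a3 the interval was -1.64 to -0.37, and its difference of -1.01 ± 0.30 (adjusted p = 0.11) passed without DMSO 2 h replicate 1 (-1.17, adjusted p = 0.0372). Dusp1, a MAP kinase phosphatase, went from 2.50 to 1.58 with an interval of -1.50 to -0.35. Its difference passed without DMSO 2 h replicate 1 (-1.07, adjusted p = 0.0355) and without dex 36 h replicate 3 (-1.07, adjusted p = 0.0456). Over all sustained rises the 95% interval of the difference reached a median of 0.336 to either side, and over the sustained falls 0.326. A change smaller than that was not resolvable for a typical gene. The intervals are not adjusted for the number of probes, so larger changes could also fail to pass. Those of Glul, Slc45a3 and Dusp1 hold changes in 1 direction only, yet the differences did not pass in the main fit.

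Sgk1, a serine kinase that is a classical direct target of the receptor, was at -0.30, -0.48, -0.39 and -0.39 with DMSO and at 0.25, 0.46, 0.39 and 0.28 with dex at 2 h and at -0.56, -0.50, -0.39 and -0.42 with DMSO and at 0.45, 0.25, 0.30 and 0.20 with dex at 36 h. Its rise was 0.74 ± 0.079 at 2 h and 0.77 ± 0.079 at 36 h, and the difference 0.032 ± 0.11 had a 95% interval of -0.21 to 0.27. Sgk1 was one of the examples named beyond the rule in the methods. Of 81 named genes with a promoter in the table, Sgk1 alone held the exact palindromic receptor binding motif within 250 bases before the start. Its promoter is shown for this, with the motif in capitals. In the RefSeq promoter table (build GRCm38.p6) it lies on the plus strand at chr10:21993676-21993740, upstream of the gene, with 174 bases between the motif and the start.
Sgk1: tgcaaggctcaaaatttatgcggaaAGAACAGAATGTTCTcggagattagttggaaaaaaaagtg

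Sustained falls were led by Cxcl5, a neutrophil chemokine, which was at 0.67, 0.60, 0.40 and 0.57 with DMSO and at -1.27, -1.65, -2.35 and -2.30 with dex at 2 h and at 0.78, 0.89, 0.63 and 0.34 with DMSO and at -0.92, -1.57, -1.36 and -0.63 with dex at 36 h. All dex arrays lay below all DMSO arrays at both times. The fall was 5.48-fold and 3.43-fold, and the difference of 0.68 ± 0.33 did not pass (95% interval -0.029 to 1.38, adjusted p = 0.39). Enc1, an actin-binding kelch protein, had effects of -1.38 and -1.40, and Pcdh18, a protocadherin, of -1.31 and -1.59. For Phldb2, which anchors microtubules at the cell edge, they were -1.35 and -1.25.

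Sign reversal was rare, with 17 genes, 5 that rose first and 12 that fell first. Sox4, a transcription factor of progenitor cells, was at -0.42, -0.61, -0.74 and -0.51 with DMSO and at 0.14, 0.58, 0.42 and 0.45 with dex at 2 h, with every dex array above every DMSO array. At 36 h it was at 0.13, 0.19, 0.28 and 0.15 with DMSO and at -0.60, -1.09, -0.81 and -1.03 with dex, with every dex array below. The effect turned from 0.97 ± 0.12 to -1.07 ± 0.12 (adjusted p = 0.000122 and 2.18e-05), and the difference of -2.04 ± 0.17 passed on both Sox4 probes (adjusted p = 7.58e-06). By arm, Sox4 changed by -1.28 ± 0.12 in dex and by 0.76 ± 0.12 in DMSO. Prokr1, a prokineticin receptor, turned from 0.56 to -0.73 and passed on all 3 probes. The other genes that rose first were Arhgap28 (0.40 at 2 h and -0.68 at 36 h) and Arhgap20 (0.58 at 2 h and -0.45 at 36 h), and Wdr92 (0.78 at 2 h and -0.28 at 36 h). For Wdr92 the remaining probes gave differences of -1.01 and 0.05.

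Gas1, a membrane protein that arrests growth, fell first. It was at 0.29, 0.39, 0.37 and 0.33 with DMSO and at -0.38, -0.11, -0.077 and -0.11 with dex at 2 h and at -0.40, -0.34, -0.10 and -0.34 with DMSO and at 0.31, 0.39, 0.14 and 0.48 with dex at 36 h. The groups did not overlap at either time, and the effect turned from -0.52 ± 0.10 to 0.62 ± 0.10, a difference of 1.14 ± 0.13 (adjusted p = 0.000161). Cldn15, a tight junction claudin, turned from -0.41 to 0.87 and Nectin2, an adhesion receptor, from -0.63 to 0.28, each on both probes. Lpl, lipoprotein lipase, turned from -0.47 to 0.34 (difference 0.81 ± 0.11, adjusted p = 0.000885) on 1 of 2 probes, the other giving 0.20. The remaining 8 were Cdc42ep2 (-0.46 at 2 h and 0.81 at 36 h), Zfp703 (-0.44 at 2 h and 0.42 at 36 h), Fam102b (-0.47 at 2 h and 0.37 at 36 h), Fam110a (-0.46 at 2 h and 0.37 at 36 h), Rap2a (-0.46 at 2 h and 0.29 at 36 h), the mechanosensitive channel gene Piezo1 (-0.34 at 2 h and 0.31 at 36 h), Akap1 (-0.29 at 2 h and 0.36 at 36 h) and Ptpn21 (-0.29 at 2 h and 0.25 at 36 h). Apart from Cdc42ep2 the effects of these were under 0.5 in size at both times.

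**Figure D4:**
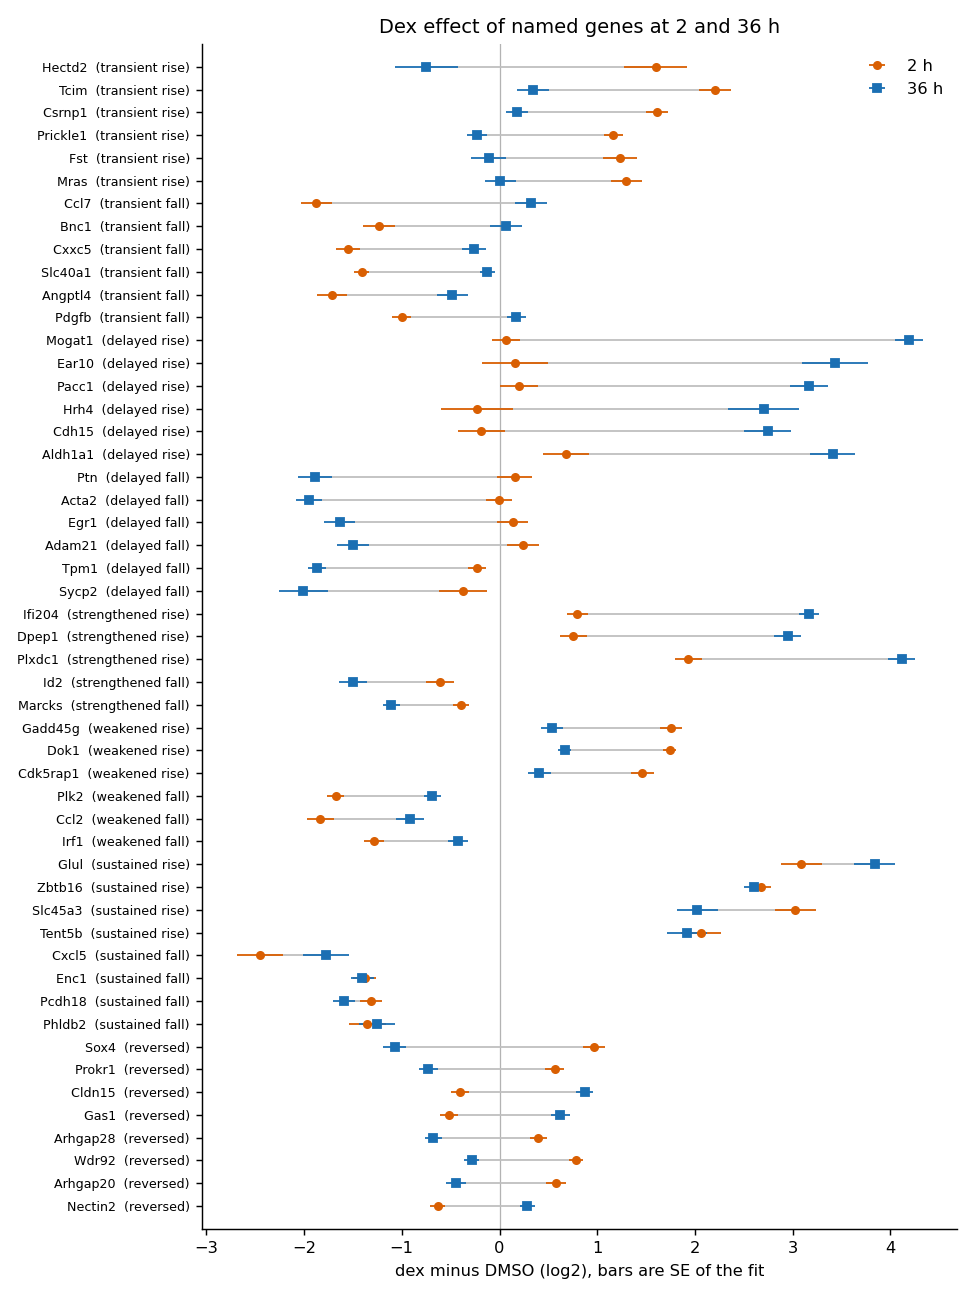
Dex effects of the genes named for each class at 2 h (circles) and 36 h (squares), as log2 of dex over DMSO with the SE of the fit. The 2 marks are far apart in transient and delayed genes, near each other in sustained genes such as Zbtb16 and Enc1, and on opposite sides of 0 in the reversed genes.

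Gene lists were set against these classes by counting members called in the difference, beside the 2.08% of all genes that were higher and the 1.29% that were lower at 36 h. Over all genes the median difference was 0.016, and at an unadjusted p under 0.05 9.59% were higher and 7.91% lower. Of 39 measured glucocorticoid receptor targets, 6 were higher and 2 lower at 36 h, with a median difference of 0.032. The list was chosen for genes that respond to glucocorticoid, and 20 of the 39 were sustained, 2 transient, 2 delayed, 2 strengthened and 2 weakened. Mt2 (1.74 at 2 h and 2.22 at 36 h) and Mt1 (1.37 at 2 h and 1.65 at 36 h), the metal-binding metallothioneins, were sustained, as were the kinase gene Pdk4 (1.73 at 2 h and 1.44 at 36 h), the ErbB inhibitor Errfi1 (2.19 at 2 h and 1.87 at 36 h) and the growth brake Ddit4 (1.52 at 2 h and 2.20 at 36 h). Klf9, a Krüppel-like factor, was at 1.07 and 0.94. The 2 delayed members were Anxa1, a mediator of anti-inflammatory glucocorticoid action (-0.23 at 2 h and 0.87 at 36 h, difference 1.09 ± 0.13, adjusted p = 0.000213, on 1 of 2 probes), and Gadd45b (-0.033 at 2 h and 0.70 at 36 h). The clock gene Per1 rose by 1.06 ± 0.16 at 2 h and was at 0.48 ± 0.16 at 36 h (adjusted p = 0.0856). Its difference of -0.58 ± 0.23 was not called (adjusted p = 0.27), but it was without DMSO 36 h replicate 2 (-0.78, adjusted p = 0.0215).

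Among 11 genes of the receptor and of steroid metabolism none was called in the difference by limma, and 4 were higher and 0 lower at an unadjusted p under 0.05 (all genes 9.59% and 7.91%). The receptor gene Nr3c1 had effects of -0.48 ± 0.12 at 2 h and -0.38 ± 0.12 at 36 h, neither of which passed (adjusted p = 0.0568 and 0.0685), with all dex arrays below all DMSO arrays at both times.

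Genes of mature adipocytes that were called in the difference all had a higher effect at 36 h. Of 30 measured members, 6 were higher and 0 lower in the difference, with a median of 0.28 against 0.016 for all genes, and 12 were higher and 0 lower at an unadjusted p under 0.05 (all genes 9.59% and 7.91%). The 6 were Mogat1, Agt, Cd36, Plin4, Lpl and Adipor2. Agt, angiotensinogen, was at 0.44, 0.23, 0.33 and 0.032 with DMSO and at 0.63, -0.074, 0.19 and 0.35 with dex at 2 h and at -1.05, -0.93, -0.75 and -0.91 with DMSO and at 1.18, 0.063, 1.45 and 0.37 with dex at 36 h. The dex arrays of 36 h spread widely but lay above the DMSO arrays, and the effect went from 0.016 to 1.68 (difference 1.66 ± 0.34, adjusted p = 0.0155, or 0.13 with array weights per time). Cd36, a fatty acid transporter, went from 0.13 to 1.45, the lipid droplet coat gene Plin4 from 0.57 to 1.42 and the adiponectin receptor gene Adipor2 from 0.013 to 0.67. Fabp4, the fatty acid carrier of adipocytes, was called at both times (1.60 ± 0.31 and 2.59 ± 0.31). Its difference of 0.99 ± 0.44 did not pass (95% interval 0.052 to 1.92, adjusted p = 0.333).

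Adipogenic transcription factors followed no single course. Of 28 measured, 2 were higher and 2 lower at 36 h. Cebpb and Cebpd, the early C/EBP factors, rose at both times, Cebpb by 1.02 ± 0.10 and 0.87 ± 0.10 and Cebpd by 0.93 ± 0.13 and 0.87 ± 0.13. The 95% interval of the difference was -0.46 to 0.16 for Cebpb and -0.45 to 0.31 for Cebpd. Pparg, the master regulator of adipogenesis, was at 0.40, 0.10, 0.22 and 0.091 with DMSO and at 0.055, -0.14, -0.013 and 0.041 with dex at 2 h and at -0.72, -0.64, -0.33 and -0.40 with DMSO and at 0.51, -0.079, 0.69 and 0.059 with dex at 36 h. At 36 h the dex arrays were above the DMSO arrays and fell into a higher and a lower pair. Its effect went from -0.22 ± 0.15 to 0.82 ± 0.15, and the difference of 1.03 ± 0.21 (adjusted p = 0.0148) passed on 1 of 3 probes, the others giving -4.4e-04 and 0.28. It was lost with array weights per time (adjusted p = 0.131) and with the mean of all probes (adjusted p = 0.174). Pparg changed by -0.73 ± 0.15 in DMSO (adjusted p = 0.0332) and by 0.31 ± 0.15 in dex (adjusted p = 0.397). Cebpa fell at 2 h (-0.55 ± 0.13), and its difference of 0.33 ± 0.18 was not called (adjusted p = 0.44). Klf5, a Krüppel-like factor of early adipogenesis, was transient on the quoted probe (1.32 and 0.28, difference -1.04 ± 0.25, adjusted p = 0.0374). Its 2 other probes gave differences of 0.32 and 1.01, the mean of its probes gave 0.095 (adjusted p = 0.84), and the call was lost under 14 of 24 alternatives.

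Of 32 measured preadipocyte markers and inhibitors of adipogenesis, 2 were higher and 2 lower. Id4, a partner of Id2 in the same family, went from -0.29 to 0.99 (difference 1.27 ± 0.16, adjusted p = 0.00035), the opposite direction to Id2. Klf3, a repressor, was a transient fall (-0.80 and 0.027). Wnt5a, a non-canonical Wnt ligand, was a delayed fall (0.19 and -0.55, both probes). Dlk1, the preadipocyte factor Pref-1, fell at 36 h (-0.86 ± 0.17), and its difference of -0.86 ± 0.24 missed the threshold (adjusted p = 0.081) but passed without DMSO 36 h replicate 1 (-1.05, adjusted p = 0.00853), after quantile normalization (-1.18, adjusted p = 0.0226) and after median centring and scaling (-1.07, adjusted p = 0.0398).

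Of 39 measured inflammatory and NF-kappaB genes, 5 were higher and 2 lower in the difference, and 25 passed in no comparison. Ccl7 and Tnfaip2 (-0.98 and 0.11, both probes) were transient falls and Ccl2 a weakened one. The adhesion receptor gene Vcam1 (0.0082 and -1.20) and the matrix protease gene Mmp3 (-0.13 and -1.49, both probes) were delayed falls. Vcam1 was at 0.19, 0.070, 0.094 and -0.21 with DMSO and at 0.0076, 0.10, 0.037 and 0.028 with dex at 2 h and at 0.29, 0.46, 0.43 and 0.24 with DMSO and at -0.67, -0.96, -0.93 and -0.84 with dex at 36 h, so the groups overlapped at 2 h and were far apart at 36 h. Cxcl5, Cxcl1 (-0.88 at 2 h and -0.85 at 36 h) and Csf1 (-0.89 at 2 h and -0.50 at 36 h) were sustained falls. Il6, the cytokine interleukin 6, fell at 2 h (-0.59 ± 0.12) and had an effect of -0.0081 ± 0.12 at 36 h, and its difference of 0.58 ± 0.16 was not called (adjusted p = 0.0885). It passed without dex 2 h replicate 1 (0.68, adjusted p = 0.0278) and without DMSO 2 h replicate 2 (0.65, adjusted p = 0.0494). Ptges, a prostaglandin synthase, and Lcn2 were the remaining members whose effect was higher at 36 h. Of 18 interferon response genes, Irf1 alone was called in the difference. With dex at 36 h 6 of the 18 were lower and 0 higher, beside 11.6% of all genes called at that time in either direction.

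Immediate early genes, which answer signals without new protein synthesis, had 3 members higher and 2 lower of 35 measured. Fosl1, an AP-1 subunit (-0.84 and -0.0027), Klf10 (-0.90 and -0.010) and the phosphatase gene Dusp4 (-1.28 and -0.14) were transient falls. Dusp4 passed on 1 of 3 probes, and its difference of 1.14 ± 0.20 (adjusted p = 0.00446) was lost with the mean of all probes (adjusted p = 0.0823). Another MAP kinase phosphatase gene, Dusp6, was a transient rise on 1 of 2 probes (0.85 and 0.14) that was lost under 14 of 24 alternatives (adjusted p = 0.0291, 0.0161 to 0.733 over them). Egr1 was the delayed fall. Myc, a growth factor-induced transcription factor, rose at both times (1.10 ± 0.15 and 1.80 ± 0.15). Its difference of 0.69 ± 0.21 was not called (adjusted p = 0.107) except without DMSO 2 h replicate 4 (0.78, adjusted p = 0.0452) and after quantile normalization (adjusted p = 0.0324) or median centring and scaling (adjusted p = 0.0159).

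Growth arrest genes held many changed members. Of 19 genes of quiescence and of cyclin-dependent kinase inhibition, 6 were higher and 2 lower at 36 h. Cdkn2b (-0.52 and 0.0061) and Cdkn2c (-0.64 at 2 h and 0.089 at 36 h), inhibitors of the cyclin D kinases, and Gadd45a (-0.85 at 2 h and -0.21 at 36 h) were transient falls. Gas6, a ligand of the TAM receptor kinases (0.28 and 1.38), and Gadd45b were delayed rises, Gas1 reversed, Gas2 (-0.26 at 2 h and -1.10 at 36 h) was a delayed fall and Gadd45g weakened. Cdkn1a, the p21 inhibitor, was sustained (0.85 at 2 h and 0.69 at 36 h). The list thus held members of 5 classes.

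In both cell cycle lists the share called in the difference, 2.86%, was near the 2.08% of all genes. Of 35 DNA replication and G1/S genes 1 was called, the cyclin gene Ccnd1, which went from 0.071 to 0.94 (difference 0.87 ± 0.16, adjusted p = 0.00632) on 1 of 4 probes, the others giving 0.49 to 0.69. It was lost with array weights per time (adjusted p = 0.0654) and with the mean of all probes (adjusted p = 0.106). Of 35 G2/M and mitotic genes 8 were higher and 1 lower with dex at 36 h and 0 in either direction at 2 h. Of all genes, 11.6% were called at 36 h and 3.12% at 2 h in either direction. The median difference of the list was 0.39 against 0.016 for all genes. At an unadjusted p under 0.05, 12 G2/M genes were higher and 1 lower in the difference, and 9 and 1 of the G1/S genes, beside 9.59% and 7.91% of all genes. The 1 G2/M gene called was Nek2, a centrosome kinase, at 0.15, 0.18, -0.30 and 0.35 with DMSO and at -0.39, -0.073, -0.32 and -0.20 with dex at 2 h and at -0.50, -0.35, -0.25 and -0.50 with DMSO and at 0.28, 0.080, 0.63 and 0.13 with dex at 36 h, with effects of -0.34 and 0.68 (difference 1.02 ± 0.20, adjusted p = 0.0116, other probe 0.27). Ccnb2, a mitotic cyclin, was at -0.54, -0.54, -0.13 and -0.39 with DMSO and at 0.60, -0.065, 1.001 and 0.025 with dex at 36 h, where the dex arrays fell into a high pair and a pair near the pool. Its effect at 36 h was 0.79 ± 0.20 and the difference of 0.71 ± 0.28 was not called (adjusted p = 0.258). Top2a, a topoisomerase of dividing cells, had a difference of 0.69 ± 0.23 (adjusted p = 0.167), which passed after quantile normalization (adjusted p = 0.0393) and after median centring and scaling (adjusted p = 0.0321). Dex 36 h replicates 1 and 3 were the higher pair for Ccnb2, Top2a, Pparg and Agt alike, but not for every gene that rose. Ccnd1 was at 0.12, 0.69, 0.22 and 0.57 on dex 36 h replicates 1 to 4, and Id4 at 0.50, 0.98, 0.56 and 0.82. Replicates 2 and 4 were the higher pair for these. Of the dex 36 h arrays, replicates 1 and 3 lay furthest from the pool in genes that passed at 36 h alone without a called difference. In the 821 such rises the median over genes was 0.29, 0.14, 0.33 and 0.13 on dex 36 h replicates 1 to 4. In the 697 falls it was -0.34, -0.18, -0.47 and -0.17, and in delayed falls -0.45, -0.43, -0.50 and -0.29. The part of replicates 1 and 3 in the results was not tested.

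The CCAAT box, in capitals, is shown for Nek2 and Ccnb2 because it was common in this list. It occurred within 250 bases before the start, on either strand, in 25 of 31 promoters of G2/M genes (80.6%), against 33.8% of the 32851 promoters in the table. Nek2 is on the plus strand at chr1:191821432-191821466 and Ccnb2 on the minus strand at chr9:70421556-70421656, both upstream of the gene (RefSeq, GRCm38.p6).
Nek2: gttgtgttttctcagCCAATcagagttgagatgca
Ccnb2: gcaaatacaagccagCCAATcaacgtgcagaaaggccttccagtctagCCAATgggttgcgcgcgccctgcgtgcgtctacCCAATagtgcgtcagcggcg

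Genes of the contractile apparatus that were called in the difference were all lower at 36 h. Of 21 measured contractile and actin cytoskeleton genes, 4 were lower and 0 higher in the difference, with a median of -0.19, and 9 were lower and 0 higher at an unadjusted p under 0.05, against 7.91% and 9.59% of all genes. The 4 were Acta2, Tpm1, Actb and the actin crosslinker gene Flna (-0.0036 at 2 h and -0.53 at 36 h). Actb, cytoplasmic beta-actin, was at -0.23, -0.071, 0.044 and 0.050 with DMSO and at 0.051, 0.081, 0.029 and 0.014 with dex at 2 h and at 1.07, 0.74, 0.79 and 0.48 with DMSO and at -0.021, -0.10, -0.058 and -0.029 with dex at 36 h. The dex level stayed near that of 2 h and the DMSO level was higher, by 0.82 ± 0.10 (adjusted p = 0.000716), and the difference in effect was -0.92 ± 0.15 (adjusted p = 0.0024). It passed on 3 of 32 probes, and the 29 that did not pass gave -0.78 to -0.085. Other members fell at 36 h without a called difference, such as Vcl, vinculin (-0.34 and -0.53), the calponin gene Cnn2 (-0.16 and -0.48) and the myosin light chain gene Myl9 (-0.15 and -0.25). The 95% interval of the difference was -0.50 to 0.12 for Vcl, -0.58 to -0.070 for Cnn2 and -0.31 to 0.11 for Myl9. The fall of Myl9 at 36 h rests on 1 of 2 probes, the other having an effect of 0.036.

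The CArG box, the binding motif of serum response factor, was in 4 of 20 promoters of this list (95% Wilson interval of the share 8.07% to 41.6%) against 1.47% of all promoters. In the class of delayed falls it was in 2 of 158 promoters (1.27%). Of the 4 promoters of the list, the 3 whose genes fell at 36 h on the quoted probe are shown. The box is in capitals, and each stretch is from upstream of its gene (RefSeq, GRCm38.p6). The difference in effect was called for none of these 3 genes. Cnn2 lies on the plus strand at chr10:79988519-79988578, Myl9 on the plus strand at chr2:156775278-156775337 and Vcl on the plus strand at chr14:20929148-20929205. The fourth was Myl6, which passed in no comparison, and the table's promoters of Acta2, Tpm1 and Flna held no such match.
Cnn2: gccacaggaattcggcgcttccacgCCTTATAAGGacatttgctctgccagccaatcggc
Myl9: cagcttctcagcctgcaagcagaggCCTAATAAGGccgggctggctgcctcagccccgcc
Vcl: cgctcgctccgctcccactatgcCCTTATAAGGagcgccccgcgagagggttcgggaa

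Genes of the extracellular matrix changed in both directions, and late. Of 48 measured matrix genes, 12 were lower and 5 higher in the difference, and 15 of the 17 were delayed. Postn, periostin, was at 0.23, 0.11, 0.11 and -0.069 with DMSO and at 0.33, 0.15, 0.30 and 0.27 with dex at 2 h and at 0.44, 0.79, 0.98 and 0.75 with DMSO and at -0.50, -0.95, -0.69 and -0.70 with dex at 36 h, with no overlap at 36 h. Its effect went from 0.17 to -1.45 (difference -1.62 ± 0.16, adjusted p = 5.39e-05, other probe -2.03). Col12a1, a fibril-associated collagen, went from 0.043 to -1.85 on 1 of 2 probes, the other giving a difference of -0.26. Tnc, tenascin C, went from -0.25 to -1.62 on 3 of 6 probes. The fibrillar collagen gene Col1a1 went from 0.052 to -0.72, where the DMSO arrays were between 0.49 and 0.90 and the dex arrays between -0.12 and 0.12. The small proteoglycans Lum (-0.19 at 2 h and -1.35 at 36 h), Fmod (-0.048 at 2 h and -1.03 at 36 h) and Dcn (0.023 at 2 h and -0.82 at 36 h) and thrombospondin 1, Thbs1 (-0.30 at 2 h and -1.43 at 36 h), were further delayed falls.

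In 5 matrix genes the effect was higher at 36 h. Col4a1, a chain of collagen IV, was at -0.27, -0.42, -0.50 and -0.44 with DMSO and at -0.11, 0.12, 0.084 and -0.054 with dex at 2 h and at -1.25, -1.07, -0.92 and -1.09 with DMSO and at 0.53, 0.66, 0.42 and 0.46 with dex at 36 h. It was strengthened, from 0.42 to 1.60 (difference 1.18 ± 0.13, adjusted p = 8.15e-05). Nid1, nidogen (-0.043 and 0.71), the laminin gene Lama2 (0.12 at 2 h and 1.06 at 36 h) and the collagen VI genes Col6a1 (0.034 at 2 h and 0.67 at 36 h) and Col6a2 (0.12 at 2 h and 0.93 at 36 h) were delayed rises, while another laminin gene, Lama4, was a delayed fall (0.057 at 2 h and -0.58 at 36 h).

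In the TGF-beta and BMP list 1 of 33 was higher and 3 were lower. Besides Fst, the receptor gene Tgfbr1 (0.17 and -0.81, 1 of 3 probes) and the matrix readout Tgfbi (-0.19 at 2 h and -1.04 at 36 h) had lower effects at 36 h, and the co-receptor gene Tgfbr3 (0.22 at 2 h and 0.76 at 36 h) a higher one. The Tgfbr1 difference of -0.98 ± 0.21 (adjusted p = 0.0167) was lost with the mean of all probes (adjusted p = 0.151). In the Wnt list, 2 of 30 were higher and 2 lower. Sfrp2, a secreted Wnt modulator, was at 0.49, 0.024, 0.058 and 0.024 with DMSO and at -0.17, -0.13, -0.12 and -0.11 with dex at 2 h and at 0.46, 0.46, 0.41 and 0.40 with DMSO and at -1.37, -1.38, -1.40 and -0.79 with dex at 36 h, so that all dex arrays of 36 h were low, replicate 4 less so. Its effect went from -0.28 to -1.67 (difference -1.39 ± 0.18, adjusted p = 0.000495), while Lrp5, a Wnt co-receptor, went from 0.079 to 0.91 on 1 of 2 probes, the other giving a difference of -0.14. In the insulin and IGF list, 1 of 23 was higher and 2 lower. The growth factor gene Igf1 (0.028 and -0.71, difference adjusted p = 0.0344) was lost under 16 of 24 alternatives (0.00253 to 0.183). Irs1, the insulin receptor substrate, fell at both times (-0.82 at 2 h and -0.86 at 36 h).

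In the circadian list 2 of 17 were higher and 0 lower. Bhlhe40, a clock repressor, was a transient fall (-1.11 and -0.0044, difference 1.10 ± 0.19, adjusted p = 0.00533), Rora a delayed rise on 1 of 3 probes that was lost under 5 of 24 alternatives, and Per2 a sustained rise (0.79 at 2 h and 0.75 at 36 h). Of 21 metallothionein and antioxidant genes 4 were higher and 0 lower. They were Cat, catalase (0.18 at 2 h and 0.79 at 36 h), Gclm, a subunit of the first enzyme of glutathione synthesis (-0.14 and 0.49), Srxn1, sulfiredoxin (-0.35 and 0.40), and Hmox1, heme oxygenase, a transient fall (-0.81 at 2 h and -0.18 at 36 h).

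Of 19 glycolysis and pentose phosphate genes 2 were higher and 1 lower. Aldoa, aldolase, was a delayed rise (-0.046 and 0.65), Hk2, hexokinase 2, a transient fall (-0.73 at 2 h and -0.041 at 36 h), and Pfkfb3, a glycolytic activator, a transient rise on both probes (1.17 and 0.18) that was lost under 12 of 24 alternatives (adjusted p = 0.0291, 0.00233 to 0.0671 over them). In sterol and fatty acid synthesis 0 of 23 were called by limma, with 7 higher and 2 lower at an unadjusted p under 0.05 (all genes 9.59% and 7.91%) and a median difference of 0.26. In the unfolded protein and heat shock list 0 of 23 were higher and 2 lower. These were the stress factor gene Atf4 (0.22 and -0.23), which passed in the difference alone, and its target Chac1 (0.22 and -0.33). Atf4 was lost under 16 of the 23 alternatives that tested it and Chac1 under 15 of 24.

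Markers of other cell types are set beside the 2.08% of all genes that were higher and the 1.29% that were lower in the difference. In the difference, 1 of 10 macrophage markers was lower (Lyz2, 0.039 and -0.56, 1 of 3 probes, lost under 7 of 24 alternatives), 1 of 10 epithelial markers was higher (Krt8, 0.28 and 1.15), and none of 10 endothelial, 8 osteoblast, 10 cartilage and 10 skeletal muscle markers was called by limma. At an unadjusted p under 0.05, 1, 1, 2 and 1 of these were lower and 0 higher, against 7.91% and 9.59% of all genes. By the same measure 3 of the macrophage markers were lower and 0 higher, and 0 of the epithelial markers were lower and 2 higher. Of 9 housekeeping genes, Rplp0 was higher (-0.031 and 0.78) on 1 of 2 probes, the other giving a difference of 0.57. With dex at 36 h 4 of the 9 rose and 3 fell, beside 11.6% of all genes called at that time in either direction. Ratios to a pool cannot show whether a marker is expressed, so the identity of the cells was not tested.

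**Figure D5:**
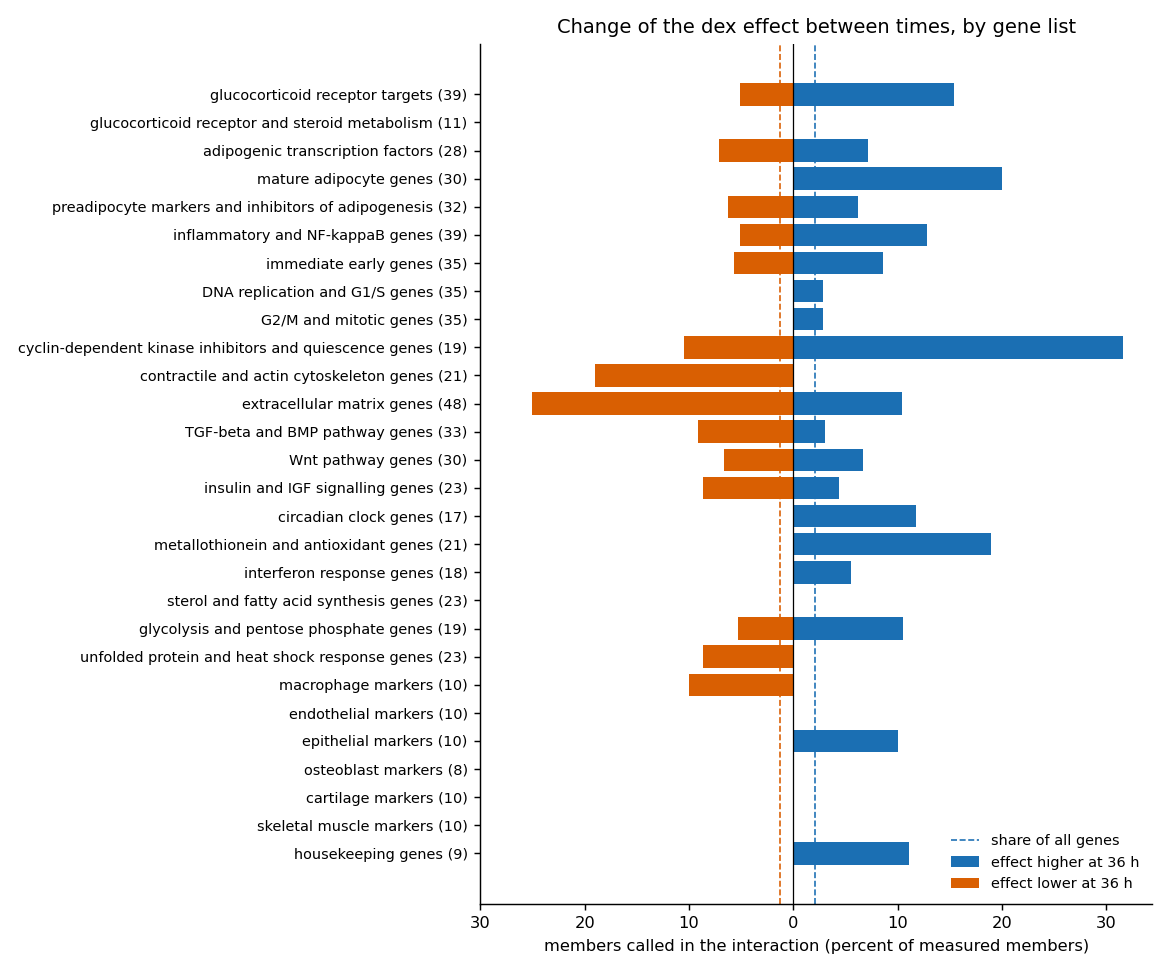
Bars give the percent of the measured members of each list (number in brackets) whose dex effect was higher (right, blue) or lower (left, orange) at 36 h than at 2 h, and dashed lines the percent of all genes, 2.08 and 1.29. Growth arrest genes reach furthest to the right, and extracellular matrix and contractile genes furthest to the left.

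Promoters of the classes were searched for the same motifs, on both strands of the 250 bases before the start. For 15190 of the measured genes the RefSeq table held a promoter. The exact receptor palindrome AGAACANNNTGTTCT was in 3 of 32851 promoters (0.00913%), and in none of the transient or delayed genes and strengthened rises. Its half-site AGAACA, which each palindrome also contains, was in 16.1% of all promoters and 13.7% of those of measured genes that passed in no comparison, in 8.57% of those of transient rises, 14.8% of delayed rises and 12.6% of sustained rises. The CCAAT box was in 34.3%, 33.9% and 30.9% of these 3 classes and in 34.9% of the genes that passed in no comparison. The cell cycle element TTTGAA was in 5252 of the 32851 promoters (16%) and in 35.5% of those of G2/M genes. Over the whole 300 bases held for each promoter, which reach past the start, these shares were 17.9% and 71%. These matches describe letters in a short window, and receptor binding was not measured here.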

How the data were processed

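RNA of 16 samples of 3T3-L1 cells was labelled with Cy5 and hybridised with a Cy3-labelled pool of the samples, per the labels' protocols. The values deposited by the authors are log ratios against the pool for each probe and array, with the log base, background correction and normalization not given in the sources used here. They are read as log2 here, since the deposited ratios do not name a base, and natural logs would scale all changes up alike. Array medians were -0.0106 to 0.0083, so the arrays were centred as deposited. The limma software is named in the series' design text. Signal intensities and depth were not analysed, and 4 arrays per group limit the precision.

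limma 3.58.1 in R 4.3.3 was fitted on the 4 group means over all 16 arrays (lmFit, eBayes) without further normalization. Benjamini-Hochberg adjustment covered 38467 probes, and the threshold was an adjusted p of 0.05. Of the probes, 29456 named 1 gene, 760 several and 8251 none, by the platform annotation with symbols updated through Entrez for 28735. A gene with several probes is quoted by the probe whose 2 dex effects, tested jointly by limma's F, gave the lowest p. The text names, among genes whose other probes bear out the sign (unadjusted p under 0.05) or that have 1 probe, the 6 largest differences of each transient and delayed direction, 3 of each strengthened and weakened direction, 8 reversed and 4 sustained of each direction, up to 2 per gene list, and a fixed set of glucocorticoid and adipogenic genes. Further examples were chosen after their values were seen. The members and lists were chosen with earlier results of these data known. Same-numbered replicates were checked for pairing. Their deviations correlated above 0.1 in 5 of 24 pairs, against 6 of 72 with different numbers, with medians of -0.0031 and 5.9e-04. This does not settle whether the numbers pair the samples. No block was used in the main fit, and a fit with a block is among the alternatives. The fit was tested on simulated data with 1 spread per probe on all arrays. That test does not cover the greater noise of the 2 h arrays. Alternatives were array weights, quantile normalization, median centring and scaling, log-odds, the more variable probes, the mean of a gene's probes, robust empirical Bayes, a replicate block and leaving out each array.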

Additional observations from a re-analysis of the deposited data

Results flagged for a closer look

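In 35 of 464 sets of 4 arrays tested, the highest or lowest array lay far from the other 3 (Dixon's test at the 95% level), where chance gives about 1 in 20 such sets. All values are log2 of sample over pool, each beside the range of the other 3 arrays of its group. On dex 2 h replicate 2, Hectd2 was at 1.06 against 0.32 to 0.43, Hrh4 was at -1.02 against -0.024 to 0.015, Cdh15 was at -1.06 against -0.21 to -0.048, Gadd45g was at 1.37 against 1.09 to 1.12, Prokr1 was at 0.75 against 0.31 to 0.35, Tgfbr1 was at 0.28 against -0.26 to -0.20 and Klf10 was at -0.15 against -0.45 to -0.42. On dex 2 h replicate 1, Tent5b was at 0.57 against 1.02 to 1.10, Angptl4 was at -0.76 against -1.44 to -1.34, Gas1 was at -0.38 against -0.11 to -0.077, Rora was at 0.0093 against -0.27 to -0.23, Dusp6 was at 0.85 against 0.37 to 0.42 and Myl9 was at -0.21 against -0.35 to -0.33. On DMSO 2 h replicate 1, Fst was at 0.46 against -0.57 to -0.54, Angptl4 was at 0.85 against 0.37 to 0.38, Sfrp2 was at 0.49 against 0.024 to 0.058, Tsc22d3 was at -0.97 against -1.69 to -1.59 and Anxa1 was at 0.0016 against -0.31 to -0.27. On dex 36 h replicate 4, Pacc1 was at 0.22 against 0.995 to 1.04, Tent5b was at 0.32 against 0.97 to 1.07, Sfrp2 was at -0.79 against -1.40 to -1.37 and Myl9 was at -0.43 against -0.32 to -0.30. On DMSO 2 h replicate 4, Hectd2 was at -2.41 against -0.79 to -0.50, Hrh4 was at 0.47 against -0.25 to -0.12 and Aldh1a1 was at 0.031 against -0.25 to -0.21. On dex 36 h replicate 2, Angptl4 was at -0.60 against -0.18 to -0.12, Plk2 was at -0.75 against -0.40 to -0.37 and Tsc22d3 was at 1.30 against 0.92 to 0.94. On dex 36 h replicate 3, Wdr92 was at -0.098 against 0.13 to 0.15 and Per1 was at -0.17 against 0.18 to 0.25. On DMSO 2 h replicate 2, Sycp2 was at 0.46 against -0.12 to -0.036. On DMSO 2 h replicate 3, Mmp3 was at -0.38 against 0.021 to 0.10. On DMSO 36 h replicate 1, Anxa1 was at -0.50 against -0.72 to -0.70. On DMSO 36 h replicate 4, Dusp6 was at 0.018 against -0.21 to -0.17. On dex 2 h replicate 4, Gas6 was at 0.32 against 0.19 to 0.20.

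The dex effect differed between the times in 90 genes named here, by the test of the difference itself (limma, adjusted p under 0.05). The values are the effect at 36 h minus that at 2 h on the log2 scale. Among transient rises it was -2.35 for Hectd2, -1.86 for Tcim, -1.44 for Csrnp1, -1.39 for Prickle1, -1.35 for Fst, -1.29 for Mras and -1.04 for Klf5. In further transient rises it was -0.98 for Pfkfb3, -1.18 for Adamts1 and -0.72 for Dusp6. Among delayed rises it was 4.13 for Mogat1, 3.27 for Ear10, 2.97 for Pacc1, 2.93 for Hrh4, 2.93 for Cdh15, 2.73 for Aldh1a1 and 1.03 for Pparg. In further delayed rises it was 1.66 for Agt, 1.27 for Id4, 0.87 for Ccnd1, 1.02 for Nek2, 0.84 for Lrp5, 0.69 for Rora and 0.75 for Srxn1. In further delayed rises it was 0.63 for Gclm, 0.70 for Aldoa, 0.87 for Krt8, 0.81 for Rplp0, 0.75 for Nid1, 1.09 for Gas6 and 1.32 for Cd36. In further delayed rises it was 1.09 for Anxa1. Among strengthened rises it was 2.37 for Ifi204, 2.19 for Dpep1, 2.18 for Plxdc1, 1.62 for Lcn2, 0.74 for Fkbp5, 1.18 for Col4a1 and 0.85 for Plin4. Among weakened rises it was -1.22 for Gadd45g, -1.07 for Dok1, -1.05 for Cdk5rap1 and -0.96 for Foxo3. Among transient falls it was 2.19 for Ccl7, 1.29 for Bnc1, 1.29 for Cxxc5, 1.29 for Slc40a1, 1.24 for Angptl4, 1.17 for Pdgfb and 1.14 for Dusp4. In further transient falls it was 1.10 for Bhlhe40, 0.82 for Klf3, 0.89 for Klf10, 0.84 for Fosl1, 1.09 for Tnfaip2 and 0.53 for Cdkn2b. Among delayed falls it was -2.04 for Ptn, -1.94 for Acta2, -1.77 for Egr1, -1.74 for Adam21, -1.64 for Tpm1, -1.64 for Sycp2 and -1.90 for Col12a1. In further delayed falls it was -1.62 for Postn, -0.98 for Tgfbr1, -1.39 for Sfrp2, -0.74 for Igf1, -0.55 for Chac1, -0.60 for Lyz2 and -1.37 for Tnc. In further delayed falls it was -0.77 for Col1a1, -0.92 for Actb, -1.21 for Vcam1, -1.37 for Mmp3 and -0.74 for Wnt5a. Among strengthened falls it was -0.89 for Id2 and -0.72 for Marcks. Among weakened falls it was 0.99 for Plk2, 0.92 for Ccl2 and 0.86 for Irf1. Among genes that rose first and reversed it was -2.04 for Sox4, -1.29 for Prokr1, -1.07 for Arhgap28, -1.07 for Wdr92 and -1.03 for Arhgap20. Among genes that fell first and reversed it was 1.28 for Cldn15, 1.14 for Gas1, 0.92 for Nectin2 and 0.81 for Lpl. Among genes that passed in the difference alone, with a lower effect at 36 h it was -0.44 for Atf4.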

How the results depend on the processing

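Of 90 genes named with a called difference, 64 kept direction and call under every alternative run and 26 lost the call under at least 1. Of 26 named genes not called, 8 passed under at least 1. Klf5 reversed with the mean of all probes per gene (0.095, adjusted p = 0.84). The cause was not tested for any of these or of the following counts. With array weights per time 239 genes were higher and 136 lower at 36 h, with 50 transient, 270 delayed, 11 strengthened, 144 sustained and 6 reversed. Quantile normalization gave 793 and 622, with 1129 delayed and 5 weakened, and median centring and scaling 843 and 582, with 1105 delayed, 10 weakened and 26 reversed. With the log-odds rule 9 were weakened, 148 sustained and 6 reversed. Testing only the more variable probes gave 252 and 148, with 256 delayed and 4 reversed, where fewer genes were tested. The replicate block, with numbers that may or may not pair the samples, gave 335 and 198. The robust fit gave 411 and 265 and the mean of probes 353 and 217.

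Leaving out 1 array gave 296 to 570 higher and 160 to 362 lower, 291 to 588 delayed, 85 to 162 transient, 24 to 41 strengthened, 8 to 30 weakened, 178 to 275 sustained and 8 to 25 reversed. Delayed genes moved by over 1.5 times without dex 36 h replicate 1 (294) and DMSO 36 h replicates 1 (300) and 2 (291). Strengthened genes did so without dex 2 h replicate 3 (24), and weakened genes without dex 2 h replicates 3 and 4 (10 each), DMSO 2 h replicate 1 (30) and DMSO 36 h replicate 2 (8). Reversed genes did so without dex 2 h replicates 3 (9) and 4 (11), dex 36 h replicate 1 (8) and DMSO 36 h replicates 1 (8), 2 (9), 3 (10) and 4 (8). Signal over background was not analysed, so which probes were dim is unknown here.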
